A study of Mus musculus with 3 samples.

Results

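Gonadotrophs are the anterior pituitary cells that make luteinizing hormone and follicle-stimulating hormone, and here they were the 178 of 9661 cell barcodes with at least 1 UMI (a counted RNA molecule) in 3 or more of Lhb, Fshb, Gnrhr, Nr5a1 and Tgfbr3l and with Pomc below 5% of their UMIs. Single-cell RNA-seq was done on the intermediate lobe of the mouse pituitary, dissected away from the anterior and posterior lobes, in 1 library for each of 3 genotypes at 3 months of age. The library labelled WT came from Sox9iresCreERT2/+ mice, the library labelled P27NULL from Sox9iresCreERT2/+;p27-/- mice, and the library labelled S2CK from Sox9iresCreERT2/+;Sox2fl/+;p27-/- mice. All 3 genotypes thus carried the Cre recombinase allele, which the labels place under tamoxifen induction at 4 weeks, whereas the study's text also describes induction at birth; the timing was not settled here. Cre was driven from Sox9, a gene of pituitary stem cells, so the Sox2 allele was a target in Sox9-expressing cells and their descendants, and gonadotrophs that did not descend from recombined cells would keep both copies. p27, encoded by Cdkn1b, is an inhibitor of the cell cycle whose loss leads to intermediate lobe tumours in mice, and Sox2 is a transcription factor of pituitary stem cells. Each library was a pool of animals, with no replicate library, so no test between genotypes was possible, and intervals below are exact 95% intervals that cover counting error only, not the spread between mice, dissections or libraries.

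Gonadotrophs answer gonadotrophin-releasing hormone from the hypothalamus through the receptor encoded by Gnrhr, and secrete both hormones as dimers that share the alpha subunit Cga and differ in the beta subunit, Lhb or Fshb. Their identity rests on the nuclear receptor SF-1, encoded by Nr5a1, acting with Gata2, Foxl2, Pitx1 and, downstream of the hypothalamic signal, Egr1. Activins raise and inhibins lower Fshb transcription, and Tgfbr3l encodes an inhibin co-receptor restricted to this cell type.

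The sequences just upstream of 3 of these genes are shown because their products mark the cells described here and their letters differ in the motifs they hold. Each is the run of 250 bases before the annotated start in RefSeq, build GRCm38.p6, written 5′ to 3′ on the gene's own strand. Capitals mark the motifs searched on both strands. They were CAAGGNCA for SF-1, whose other strand reads TGNCCTTG, and TGGGGGNG for EGR factors, whose other strand reads CNCCCCCA. The PITX motif was TAATC, with the other strand reading GATTA. The motif for GATA factors was AGATAA, which on the other strand reads TTATCT. The window of Lhb lies at chr7:45420696-45420945 on the plus strand, that of Tgfbr3l at chr8:4247964-4248213 on the plus strand, and that of Fshb at chr2:107059652-107059901 on the minus strand.
Lhb: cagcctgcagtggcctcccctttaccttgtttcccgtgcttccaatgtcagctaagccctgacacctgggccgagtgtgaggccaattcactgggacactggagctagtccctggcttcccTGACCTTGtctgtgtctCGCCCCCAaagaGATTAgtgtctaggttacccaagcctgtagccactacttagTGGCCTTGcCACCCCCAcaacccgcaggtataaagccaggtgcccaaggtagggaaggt
Tgfbr3l: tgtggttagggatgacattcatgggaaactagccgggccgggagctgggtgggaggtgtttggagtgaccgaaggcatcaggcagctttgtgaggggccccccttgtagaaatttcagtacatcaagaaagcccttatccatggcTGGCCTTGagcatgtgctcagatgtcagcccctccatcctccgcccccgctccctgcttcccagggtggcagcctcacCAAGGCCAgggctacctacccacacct
Fshb: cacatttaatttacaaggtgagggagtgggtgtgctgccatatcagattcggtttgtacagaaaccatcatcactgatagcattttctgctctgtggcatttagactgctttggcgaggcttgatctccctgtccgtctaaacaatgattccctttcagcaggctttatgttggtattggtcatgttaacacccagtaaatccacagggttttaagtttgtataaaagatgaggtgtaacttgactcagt
The Lhb window held 5 matches, 2 for SF-1, 2 for EGR and 1 for PITX, the SF-1 and EGR matches lying in neighbouring pairs. The Tgfbr3l window held 2 SF-1 matches, 1 on each strand. No searched motif was found in the Fshb window, which says only that these letters are not in it. Of 32851 windows of the same length in the table, 5.53% held the SF-1 motif, 12.8% the EGR motif, 19.8% the PITX motif and 9.99% the GATA motif. The window of Cga, at chr4:34893529-34893778 on the plus strand, held 1 SF-1 match, and that of Gnrhr, at chr5:86197902-86198151 on the minus strand, held 1 PITX match. A match is a description of the letters and not a shown binding site.

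The rule picked 48 of 2020 barcodes in the library labelled WT, 111 of 4153 in that labelled P27NULL and 19 of 3488 in that labelled S2CK. These were shares of 2.38% (1.76 to 3.14), 2.67% (2.20 to 3.21) and 0.545% (0.328 to 0.849) of all barcodes. The S2CK interval lay below both others. Among barcodes with Pomc under 5% of UMIs the shares were 6.66% (4.95 to 8.73), 17.8% (14.9 to 21.0) and 4.16% (2.52 to 6.42). There the WT and S2CK intervals overlapped. Gonadotrophs belong to the anterior lobe, so these shares also depend on how much anterior lobe each dissection carried, and this cannot be told apart from genotype with 1 library of each. No barcode sequence of a gonadotroph was shared between libraries, although 2 to 4 barcode sequences of other cells were. Gonadotrophs had a median of 7517.5 UMIs in WT, 2684 in P27NULL and 5210 in S2CK, against 3587, 2741 and 4906 in the other barcodes. Summed over barcodes they gave 377933, 456801 and 111500 UMIs, and levels below are counts scaled to a library sum of 1000000 (CPM), given in the order WT, P27NULL, S2CK where 3 stand together.

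The edge of the rule was sharp in the barcodes with 1 marker but not in those with 2. Cga, which the rule did not use, stood at 118995 CPM in the 7 WT barcodes with exactly 3 markers, at 38106 in the 38 of P27NULL and at 61626 in the 5 of S2CK. In the 6, 9 and 8 barcodes with 2 markers it was 171076, 39121 and 13525 CPM, and with 1 marker 3566, 961 and 3064 CPM. Barcodes just outside the rule thus had as much Cga as those just inside in 2 of the 3 libraries, and the counts of gonadotrophs given here are counts by the rule. A further 2, 5 and 5 barcodes had 3 or more markers but too much Pomc.

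**Figure D1:**
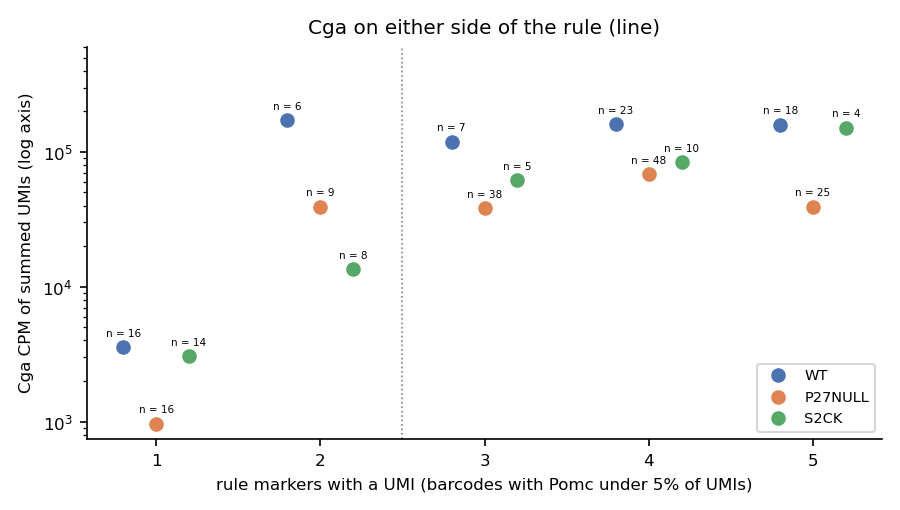
Cga level (CPM of summed UMIs, log axis) in barcodes grouped by how many of the 5 rule markers had a UMI, for the 3 libraries. The number of barcodes is printed at each point, and a line between 2 and 3 markers shows where the rule cuts. Barcodes with 2 markers reached 171076 CPM in WT and 13525 in S2CK, and those with 1 marker stayed at or below 3566.

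The label held up on the markers that the rule did not use, which are given as a description, since the same cells were picked and measured. Cga had a UMI in all 178 gonadotroph barcodes. After every barcode was thinned to 2000 UMIs, leaving 48, 73 and 19 gonadotrophs, Cga had a UMI in 100% of them in each library, against 7.0%, 2.3% and 3.6% of the other barcodes, the share that free RNA in the droplets and cells missed by the rule can give. Gata2 had a UMI in 18.8%, 46.6% and 5.3% of thinned gonadotrophs and in 0.3%, 0.4% and 0.2% of the others. Foxl2 had one in 27.1%, 23.3% and 36.8%, against 0.7%, 0.4% and 0.5%. All 3 genes were thus concentrated in the barcodes picked, Gata2 only in few of the S2CK ones.

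The summed levels of melanotroph and Pou1f1 lineage markers were far lower in the gonadotrophs than around them, but that of stem cell markers was not. The 9 melanotroph markers, Pomc included, summed to 2974, 3461 and 1605 CPM in gonadotrophs and to 143080, 130726 and 130467 CPM in the other barcodes. The rule capped Pomc, so a low melanotroph sum was set by the choice of cells and says nothing on its own. Pcsk2, a melanotroph marker that the rule did not use, had a median log2 ratio of -4.90 over the other barcodes. The 10 markers of the Pou1f1 lineage, which makes growth hormone, prolactin and thyrotrophin, summed to 288, 103 and 44.8 CPM, against 8972, 1234 and 4958. Pou1f1 itself had 1 UMI in WT gonadotrophs and 0 in both others, while 1 barcode held 79.0% of the WT growth hormone (Gh) UMIs. The 5 erythroid markers had 1, 0 and 0 UMIs. Markers of macrophages, endothelium, fibroblasts, pituicytes and lymphocytes summed to between 0 and 224 CPM per list, the highest being macrophage markers in S2CK, where 1 barcode held 64.0% of them. The 6 endothelial markers were at 95.3, 28.5 and 35.9 CPM against 123, 29.9 and 48.7 in the others, and the 6 pituicyte markers at 18.5, 37.2 and 44.8 against 44.5, 32.3 and 25.5, so neither list was far below its surroundings. The 9 stem cell markers were at 937, 1480 and 377 CPM in gonadotrophs and 779, 292 and 244 in the other barcodes. A single barcode held 49.4%, 30.03% and 52.4% of those UMIs, and without it the sums were 503, 1097 and 192 CPM. Mia made up much of the P27NULL sum, with 452 UMIs spread over 56 of 111 barcodes, whereas Sox2 and Sox9 had 16 and 7 UMIs in that library and 0 in S2CK. The part of mixed droplets in the results below was not tested.

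The sex of the cells differed between libraries and moved with every comparison of genotypes. Xist, which is expressed from the inactive X chromosome, had no row in the WT table, and Y-linked genes had none in that of S2CK, which may reflect the authors' filter on genes seen in few cells rather than a true 0. Xist was detected without a Y-linked UMI in 0 of 48 WT gonadotrophs, 9 of 111 in P27NULL (8.11%, 3.77 to 14.8) and 19 of 19 in S2CK. In the other barcodes of P27NULL the share was 18.7%. By these genes the gonadotrophs of WT were male, those of S2CK female and those of P27NULL mostly male, so genotype and sex cannot be told apart for S2CK. The study describes the S2CK sample as a pool of male and female animals, and these counts go against that.

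Cdkn1b, the gene named in 2 of the 3 genotypes, was not low in the gonadotrophs of the library labelled P27NULL. It stood at 138 CPM (103 to 180) in WT, 142 (110 to 181) in P27NULL and 98.7 (49.2 to 177) in S2CK, with all 3 intervals overlapping. Whether the counted 3′ ends lie within the deleted part of the gene is not given in the sources used here, so these counts do not settle the labels. In each library Cdkn1b was higher in gonadotrophs than in the other barcodes, which had 36.7, 30.7 and 17.2 CPM, and after thinning it had a UMI in 25%, 28.8% and 21.1% of gonadotrophs against 6.9%, 5.6% and 3.1% of others. Libraries are therefore named by their labels throughout. Sox2 dosage could not be read from gonadotrophs, which had 14, 16 and 0 Sox2 UMIs.

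The genes that set gonadotrophs apart in all 3 libraries were the hormone subunits, the transcription factors of the lineage and a set of secreted and cytoskeletal genes. Of 2275 genes with enough UMIs, 106 (4.66%) were at least 2-fold higher in gonadotrophs than in the other barcodes of every library and 11 (0.484%) at least 2-fold lower. The median log2 ratio over all genes was 0.15. All 3 hormone subunits were among the 106, with a median log2 ratio of 9.29, and so were 9 of the 10 transcription factors of the lineage that had enough UMIs, from a list of 17, with a median of 3.98. These cells were chosen on 5 of these genes, so no test applies. A gene that passed the UMI minimum through its level in gonadotrophs alone also had to be higher there.

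Among the transcription factors, Nr0b1, which encodes the SF-1 partner DAX-1, was at 95.3, 125 and 224 CPM in the WT, P27NULL and S2CK gonadotroph sums and near 1 CPM or less in the others, a log2 ratio of at least 6.98 in every library. Pitx1, a homeobox gene used throughout the anterior and intermediate lobes, was enriched less, at 230, 497 and 305 CPM against 71.9, 89.7 and 91.5. Isl1, Neurod1 and Foxp2 were also among the 9. Egr1 was the 1 of the 10 that was not, at 175, 412 and 305 CPM in gonadotrophs, with a median log2 ratio of 0.96. Lhx3, a homeobox gene of all pituitary endocrine lineages, had too few UMIs in S2CK to be counted. It was at 58.2, 54.7 and 8.97 CPM in gonadotrophs and 64.4, 67.3 and 47.2 in the others. Over the 3 libraries the median log2 ratio was 7.30 for Nr0b1, 5.95 for Foxl2, 5.76 for Gata2, 1.98 for Foxp2 and 1.74 for Pitx1.

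Receptors followed the same order. Of 15 hypothalamic and steroid receptors listed, 4 had enough UMIs and 3 were higher in every library, with a median log2 ratio of 2.77. Gnrhr was at 280, 477 and 664 CPM against 1.89, 1.32 and 1.88. Esr1, an estrogen receptor, was at 76.7, 109 and 152 CPM in gonadotrophs and at 14.3, 17.2 and 15.5 in the others. Adcyap1r1, the receptor for the hypothalamic peptide PACAP, was at 34.4, 65.7 and 35.9 CPM against 0.503, 1.52 and 1.62, with too few UMIs in S2CK to be counted. Of 20 activin and TGF-beta genes listed, 3 had enough UMIs, and Tgfbr3l and Tgfbr3, the inhibin co-receptor betaglycan, were higher in every library. Of 28 genes of GnRH signalling, 12 had enough UMIs and 4 were higher, namely the protein kinase C genes Prkcb, Prkcd and Prkce and the calcium channel gene Itpr1, and the list's median was 0.94. Over all genes 4.66% were higher in every library, and Gnrhr and Tgfbr3l, being markers of the rule, had to be.

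Genes outside the fixed lists ranked high beside these. Clec2l, a C-type lectin gene, had its lowest log2 ratio at 6.69, Nxnl2, a nucleoredoxin-like gene, at 6.59 and Apoc3, which encodes an apolipoprotein of triglyceride-rich particles, at 6.10. The vascular growth factor genes Vegfd and Vegfa followed at 5.40 and 3.62, with Vegfa at 122, 129 and 80.7 CPM in gonadotrophs. The neurofilament genes Nefl and Nefm had lowest log2 ratios of 4.79 and 4.33, and Serpine2, a secreted protease inhibitor, of 5.20. Ecel1, a membrane peptidase gene, was at 148, 256 and 547 CPM, and Fscn1, an actin-bundling gene, at 90.0, 212 and 71.7. Spp1, which encodes osteopontin, had a lowest log2 ratio of 4.02. The 3 libraries' intervals overlapped for Nxnl2, Vegfd, Vegfa, Nefl and Nefm but not for Apoc3, Ecel1 or Spp1.

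**Figure D2:**
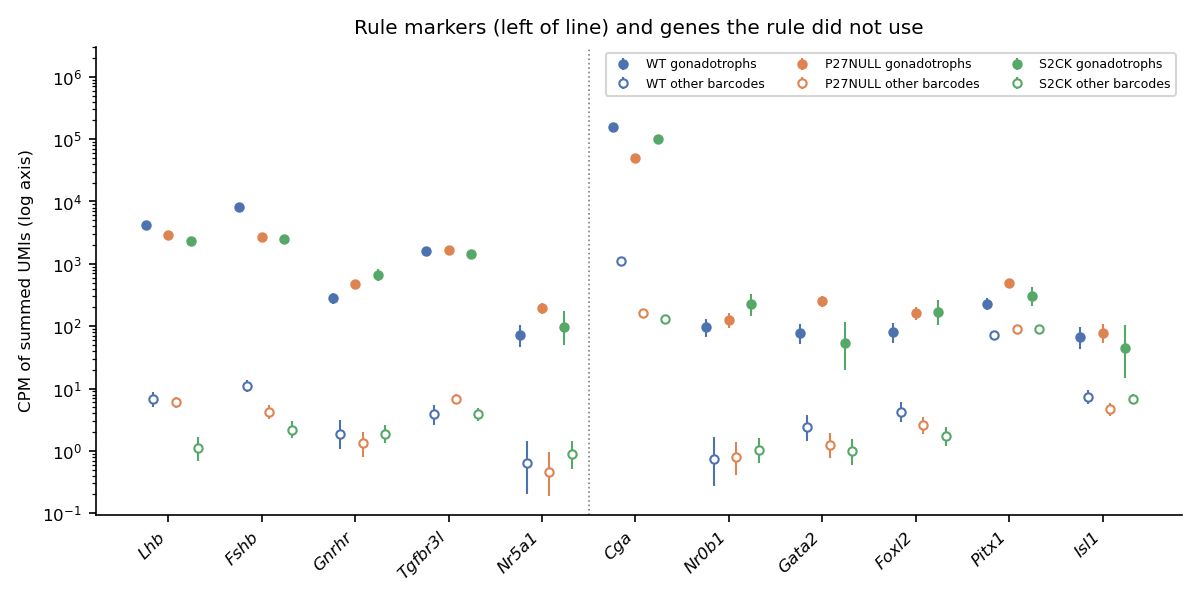
Levels (CPM of summed UMIs, log axis) of gonadotroph genes in gonadotrophs (filled) and in all other barcodes of the same library (open), coloured by library, with 95% Poisson intervals. Cga reached 154541, 50267 and 100897 CPM in the gonadotrophs of WT, P27NULL and S2CK against 1099, 163 and 129 in the others.

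The library labelled P27NULL had less hormone RNA in its gonadotrophs than WT, for all 3 subunits, and more RNA of the lineage transcription factors and of immediate-early genes. Less RNA per cell and a different mix of gonadotroph states cannot be told apart in these sums, which is why the spread over barcodes is given too. The interval excluded 0 for 476 of the genes at least 2-fold higher in P27NULL and 95 of those at least 2-fold lower. Of 4970 genes with at least 20 UMIs in both sums together, 646 (13%) were at least 2-fold higher in P27NULL and 122 (2.45%) at least 2-fold lower, with a median log2 ratio of 0.26. That split, 84.1% higher among the genes past 2-fold, depends on scaling, since Cga alone stood at 154541 CPM in WT: it was 65.0% with TMM scaling, which put the median at 0.03, and 71.5% with Cga left out of the totals.

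Cga stood at 154541 CPM (153290 to 155799) in WT gonadotrophs, 50267 (49619 to 50921) in P27NULL and 100897 (99041 to 102779) in S2CK. The log2 ratio of P27NULL over WT was -1.62 (-1.64 to -1.60). By barcode, Cga took a median of 15.7% of UMIs in WT (range 0.925 to 31.9), 4.43% in P27NULL (0.212 to 38.5) and 7.56% in S2CK (0.989 to 25.7). The ranges overlapped, and the medians had the same order as the sums.

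Fshb was at 8303 CPM (8015 to 8599) in WT, 2649 (2502 to 2802) in P27NULL and 2466 (2183 to 2776) in S2CK, a log2 ratio of -1.65 for P27NULL over WT. Lhb was at 4236 (4031 to 4449), 2861 (2708 to 3021) and 2323 (2049 to 2624), and its log2 ratio of -0.57 was smaller than that of Fshb. WT was the highest library for each subunit. The 3 subunits were lower in P27NULL under every alternative, with the list's median between -1.85 and -1.33. The S2CK sums rested on few cells, since 1 barcode held 62.5% of the Fshb, 40.5% of the Lhb and 26.5% of the Cga UMIs. Without the barcode that held most, Fshb was at 1031 CPM (841 to 1250), Lhb at 1541 (1308 to 1805) and Cga at 82766 (80992 to 84570), so Fshb in S2CK then lay below P27NULL.

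**Figure D3:**
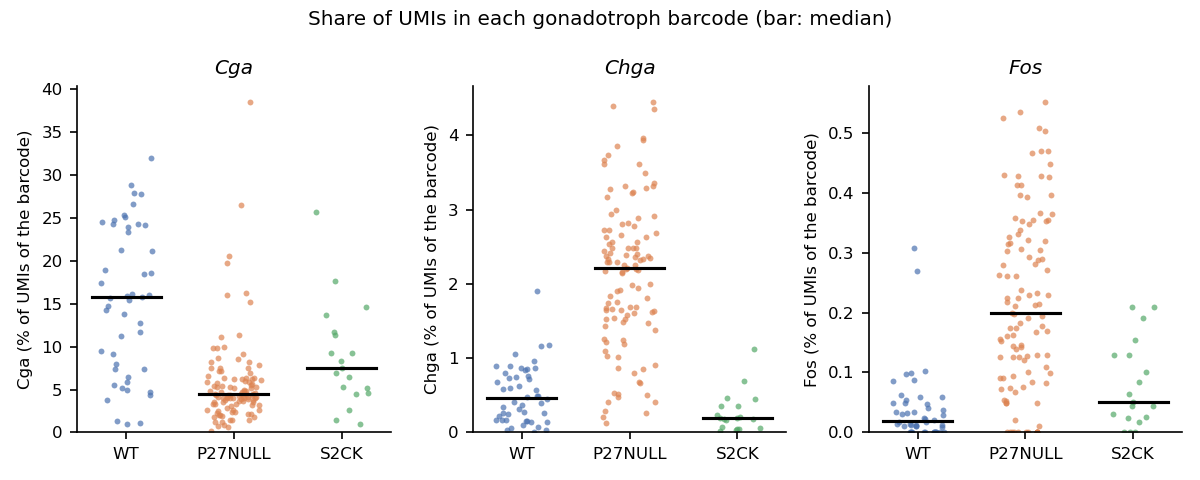
Percent of each gonadotroph barcode's UMIs that came from Cga, Chga and Fos, 1 panel per gene and 1 point per barcode, with a bar at the median of each library. Cga had medians of 15.7% in WT, 4.43% in P27NULL and 7.56% in S2CK, and Chga of 0.463%, 2.22% and 0.188%.

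Both beta subunits were found in most gonadotrophs, as the rule favours, since Lhb and Fshb are 2 of its 5 markers and a barcode with neither needed all of the other 3. Both Lhb and Fshb were detected in 46 of 48 WT, 82 of 111 P27NULL and 13 of 19 S2CK gonadotrophs. In WT 41 barcodes had more Fshb than Lhb UMIs and 4 had more Lhb, in P27NULL 40 and 67, and in S2CK 8 and 8. Thinned to 2000 UMIs, Fshb was detected in 95.8%, 69.9% and 57.9% and Lhb in 95.8%, 90.4% and 73.7%; in S2CK the intervals, 33.5 to 79.7 for Fshb and 48.8 to 90.9 for Lhb, overlapped widely. Levels of Lhb and Fshb went together across barcodes, with a Spearman rho of 0.56 over 48, 0.57 over 111 and 0.44 over 19 barcodes. Lhb and Cga had rho values of 0.74, 0.61 and 0.74. These are descriptions, since the rule used both beta subunits and the barcodes of a library share their animals, depth and the Cga-dominated total.

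**Figure D4:**
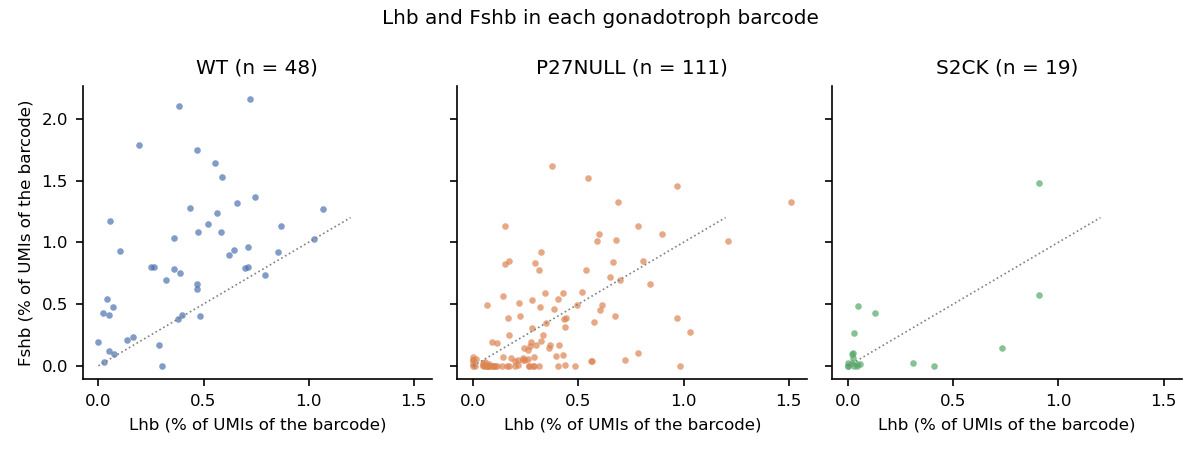
Lhb (horizontal axis) and Fshb (vertical axis) as a percent of each gonadotroph barcode's UMIs, 1 panel per library and 1 point per barcode, with a dotted line where both are equal. More Fshb than Lhb UMIs were found in 41 of 48 WT, 40 of 111 P27NULL and 8 of 19 S2CK barcodes.

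Sex moved with Fshb inside the library labelled P27NULL. Its 9 gonadotrophs with Xist had 670 CPM of Fshb and its 101 without had 2862, a log2 ratio of -2.09. Lhb was at 1825 and 2971 CPM, a log2 ratio of -0.70, and Cga at 46319 and 50743, a ratio of -0.13. Fshb had a UMI in 4 of the 9 and 81 of the 101. The difference in these sums was thus large for Fshb and small for Cga, but 1 of the 9 barcodes held 51.7% of their Fshb UMIs and the sexes came from different animals. Another of the 9 gave 20557 of their 43287 UMIs, with only 458 of Cga and 11 of Lhb, so the sums rest heavily on it. By barcode, Cga had medians of 4.79% with Xist and 4.42% without, and Lhb of 0.101% and 0.297%. Among gonadotrophs without Xist, P27NULL over WT was -1.54 for Fshb and -1.61 for Cga, close to the values over all barcodes. S2CK over the 9 P27NULL barcodes with Xist was 1.88 for Fshb and 1.12 for Cga, values that rest on the same uneven sums.

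The lineage transcription factors went the other way from the hormones. Of 11 with enough UMIs, Egr1 included, 6 were at least 2-fold higher in P27NULL than WT and 0 lower, beside 13% and 2.45% of all genes, with a median log2 ratio of 1.01 beside 0.26 for all genes. With TMM scaling, or with Cga left out of the totals, 4 were higher, and the median lay between 0.73 and 1.09 under every alternative. Gata2 was at 76.7 CPM (51.4 to 110) in WT, 250 (206 to 300) in P27NULL and 53.8 (19.7 to 117) in S2CK, a log2 ratio of 1.70 (1.10 to 2.34) for P27NULL over WT. Nr5a1 was at 71.4, 193 and 98.7 CPM, with a ratio of 1.43 (0.79 to 2.11). Both were highest in P27NULL, with intervals that did not overlap those of WT. Nr5a1, 1 of the 6, was also a marker of the rule, so its level depended in part on how the cells were chosen. P27NULL gonadotrophs had a median of 2684 UMIs and WT ones 7517.5, and the part of depth and rule in the ratio of Nr5a1 was not tested. Pitx1 had 230, 497 and 305 CPM and a ratio of 1.11 (0.75 to 1.48), and Foxl2 79.4, 160 and 170 CPM and a ratio of 1.01 (0.38 to 1.67). Nr0b1, at a ratio of 0.39 (-0.24 to 1.03), was not told apart from 0 at this depth. In the other barcodes of the 2 libraries the list's median was -0.37.

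The hypothalamic and steroid receptors showed 0 of 7 past 2-fold in either direction between P27NULL and WT, with a median of 0.51. Gnrhr was nevertheless higher, at 280 CPM (230 to 339) in WT, 477 (416 to 545) in P27NULL and 664 (521 to 833) in S2CK, and its ratio was 0.77 (0.43 to 1.12). As a marker of the rule it helped to choose these cells, and the part of this in its ratio was not tested. Of 7 activin and TGF-beta genes, 3 were past 2-fold higher, or 2 with TMM scaling, beside 13% of all genes. Their median was 0.97 beside 0.26 for all genes. Inhbb, the beta B subunit of activin B and inhibin B, had 7, 41 and 1 UMIs, or 18.5, 89.8 and 8.97 CPM, a ratio of 2.28 (1.11 to 3.68) for P27NULL over WT. Tgfbr3l was at 1601, 1677 and 1417 CPM, a ratio of 0.07 (-0.09 to 0.22).

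Downstream of the GnRH receptor, 6 of 21 genes were past 2-fold higher and 1 lower, beside 13% and 2.45% of all genes, with a median of 0.55. With TMM scaling 2 were higher and the median was 0.31, and with Cga left out of the totals 4 were. Prkcd was at 15.9, 81.0 and 98.7 CPM in the WT, P27NULL and S2CK sums, and its ratio of P27NULL over WT was 2.35 (1.09 to 3.89). Plcb3, a phospholipase C gene, had 1, 21 and 1 UMIs. Rgs4, which encodes a brake on G protein signalling, was the gene that was lower, at 79.4, 37.2 and 35.9 CPM. The members of the list thus did not share a direction.

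Immediate-early genes, which respond within minutes to signals and also to tissue dissociation, were higher in P27NULL gonadotrophs than in WT ones for every member of the study's own list. The study drew that list from its intermediate lobe stem cells and not from gonadotrophs. All 5, Fos, Ier2, Junb, Jun and Egr1, were past 2-fold, with a median log2 ratio of 1.38, and 8 of 12 others with enough UMIs were, from a list of 23, with a median of 1.23. Over all genes 13% were past 2-fold higher, with a median of 0.26. With TMM scaling the 5 stayed past 2-fold and 5 of the 12 others were. Fos was at 397 CPM (336 to 466) in WT, 1940 (1814 to 2072) in P27NULL and 717 (569 to 893) in S2CK, a ratio of 2.29 (2.04 to 2.55). Ier2 was at 820, 2802 and 2735 CPM, Junb at 669, 1747 and 1399, and Jun at 180, 460 and 359. WT was the lowest library for all 4. In the other barcodes the direction was the opposite, with Fos at 1141, 893 and 489 CPM and a list median of -0.48 for P27NULL over WT. Atf3 had 1, 24 and 0 UMIs, the 24 in 7 barcodes. Egr1, the GnRH-induced factor whose motif stands in the Lhb window above, was at 175 (135 to 222), 412 (355 to 475) and 305 (211 to 426) CPM.

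At 2000 UMIs Fos was detected in 35.4% of WT, 87.7% of P27NULL and 68.4% of S2CK gonadotrophs, and in 79.8%, 56.3% and 42.5% of the other barcodes. The order of the libraries was thus different in the gonadotrophs and in the cells around them. Heat shock genes, another group that answers stress, had 1 of 10 past 2-fold higher in P27NULL than WT and 1 lower. All genes had 13% and 2.45%. The list's median of 0.32 was near the 0.26 of all genes. Without Xist-bearing barcodes Fos was 2.35 higher in P27NULL on the log2 scale.

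**Figure D5:**
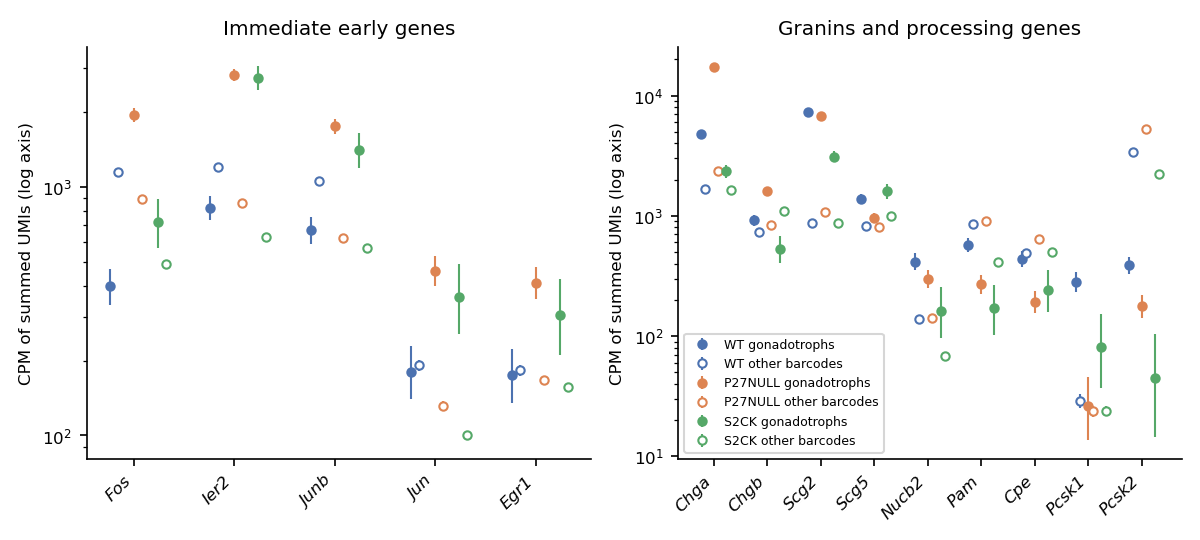
Levels (CPM of summed UMIs, log axis) of immediate-early and secretory granule genes in gonadotrophs (filled) and other barcodes (open) of the 3 libraries, with 95% Poisson intervals. Fos in gonadotrophs was at 397, 1940 and 717 CPM in the WT, P27NULL and S2CK sums, and Chga at 4757, 17318 and 2350.

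Among secretory granule genes, Chga was higher in P27NULL than in WT, and prohormone-processing enzymes were lower. Of 15 listed, 13 had enough UMIs. Of the 13, 1 was past 2-fold higher in P27NULL than WT and 5 were lower, beside 13% and 2.45% of all genes. Their median was -0.54 beside 0.26 for all genes. The gene that was higher was Chga, the granin chromogranin A, at 4757 CPM (4540 to 4983) in WT, 17318 (16939 to 17704) in P27NULL and 2350 (2074 to 2652) in S2CK. Its ratio of P27NULL over WT was 1.86 (1.79 to 1.94), against 0.50 in the other barcodes, and it took a median of 0.463%, 2.22% and 0.188% of a gonadotroph's UMIs. Scg2, a granin at least 2-fold above the other barcodes in every library, was at 7282, 6786 and 3103 CPM. Chgb was at 916, 1605 and 529 CPM, which did not pass 2-fold for P27NULL over WT. In P27NULL Chga was at 6676 CPM in the 9 barcodes with Xist and 18389 in the 101 without, so sex moved with this gene too. By barcode the medians were 0.906% and 2.29% of UMIs, and 1 of the 9 held 36.7% of their Chga UMIs.

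Pcsk1, a convertase that cuts prohormones, was at 283 CPM (232 to 342) in WT, 26.3 (13.6 to 45.9) in P27NULL and 80.7 (36.9 to 153) in S2CK, a ratio of -3.43 (-4.43 to -2.57) for P27NULL over WT. Pcsk2, Cpe and Pam, enzymes of the later steps of peptide processing, were at 386, 437 and 569 CPM in WT and 177, 193 and 269 in P27NULL. All 4 enzymes were lower in P27NULL and none of their WT and P27NULL intervals overlapped. Pcsk2 was far below its level in the other barcodes, which had 3372, 5282 and 2234 CPM, as melanotrophs express it strongly.

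Outside the lists, Apoc3 had the largest ratio among genes higher in P27NULL with a count in both libraries. It was at 106 CPM (75.6 to 144) in WT, 2653 (2506 to 2807) in P27NULL and 126 (68.6 to 211) in S2CK, a ratio of 4.65 (4.19 to 5.14). It was found in 93 of 111 P27NULL barcodes but in 13 of 48 in WT, where 1 barcode held 60.0% of its UMIs. In P27NULL it was at 370 CPM with Xist and 2891 without. Apoc3 had a UMI in 3 of the 9 barcodes with Xist, 1 of which held 87.5% of its UMIs, and in 89 of the 101 without. Klk1, a tissue kallikrein gene, had 0 UMIs in WT, 88 in P27NULL and 29 in S2CK, which makes it at least 4.60 higher in P27NULL on the log2 scale against a floor of 3 counts. Spink4 and Sectm1b had 0 WT and 51 and 42 P27NULL UMIs, or at least 3.81 and 3.53 higher. On the other side, Spp1 was at 828 CPM (739 to 925) in WT, 94.1 (68.1 to 127) in P27NULL and 359 (256 to 489) in S2CK, a ratio of -3.14. C1ql2, a synaptic organiser gene, had 30, 1 and 0 UMIs, and Cxcl14, a chemokine gene, 265, 43.8 and 143 CPM.

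Gonadotrophs labelled S2CK were compared with those labelled P27NULL, which share the p27-/- genotype by their labels, because the design asks what the Sox2fl allele in Sox9-expressing cells went with. Of 3920 genes with enough UMIs, 189 (4.82%) were at least 2-fold higher in S2CK and 670 (17.1%) at least 2-fold lower, with a median of -0.12. The interval excluded 0 for only 115 of the 189 and 253 of the 670, so most of the lower genes were within counting error. With 111500 UMIs in S2CK, a gene with 0 UMIs could still be at 26.9 CPM. Of the genes past 2-fold, 22.0% were higher, but 64.3% when only the 9 P27NULL barcodes with Xist were compared. That comparison also had fewer UMIs, 43287 on the P27NULL side, so fewer genes met the minimum, and the part of sex in the change was not tested.

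Cga was higher in S2CK by 1.01 (0.97 to 1.04) on the log2 scale, and by 0.36 without barcodes over 2 times the median UMIs, while Lhb and Fshb had ratios of -0.30 (-0.50 to -0.11) and -0.10 (-0.30 to 0.09). The sign of the last 2 depended on the setting, with ranges of -1.12 to 0.35 for Lhb and -1.66 to 1.88 for Fshb. The lineage transcription factors had 0 of 11 past 2-fold higher and 2 lower, beside 4.82% and 17.1% of all genes. The lower count was thus near the share over all genes. Their median was -0.60 beside -0.12 for all genes. When only barcodes with Xist were compared, 5 of the 11 kept enough UMIs and their median was 0.08. Gata2 accounted for 1 of the 2, at 53.8 CPM in S2CK from 6 UMIs in 3 barcodes, a ratio of -2.21 (-3.69 to -1.05). Of 13 granule genes, 2 were past 2-fold higher and 5 lower, with Chga at a ratio of -2.88 (-3.06 to -2.70) and Scg2 at -1.13 (-1.29 to -0.97). Against the 9 P27NULL barcodes with Xist the ratio of Chga was -1.51. Of the 5 immediate-early genes of the study's list, only Fos was past 2-fold, at -1.43 (-1.78 to -1.10). Of 10 other immediate-early genes, 0 were past 2-fold higher and 5 lower, with a median of -1.09 where a 0 is read as 3 counts. Among barcodes with Xist, 3 of these others kept enough UMIs and their median was -0.02.

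Genes outside the lists that were higher in S2CK than in P27NULL included Bst2, an interferon-induced gene, at 42.3 CPM in WT, 109 in P27NULL and 547 in S2CK, a ratio of 2.32 (1.76 to 2.89). Il6st, the shared receptor subunit of the interleukin 6 family, was at 31.8, 35.0 and 161 CPM, a ratio of 2.20 (1.15 to 3.27). Spp1 was higher by 1.93 (1.27 to 2.59), with 50% of its S2CK UMIs in 1 barcode. Several of the genes that were lowest in S2CK rested on 1 P27NULL barcode, which held 57.8% of the UMIs of S100a6, a calcium-binding protein gene, and 54.7% of those of the stem cell marker Cyp2f2.

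Between S2CK and WT, genotype differed at both loci and all cells differed in sex. Of 2954 genes, 284 (9.61%) were at least 2-fold higher in S2CK and 277 (9.38%) lower, with a median of 0.15. The interval excluded 0 for 208 of the 284 and 120 of the 277. Of all genes past 2-fold 50.6% were higher, but 22.8% with TMM scaling, which put the median at -0.16. The hormones had 0 of 3 past 2-fold higher and 1 lower, Fshb at -1.75 (-1.93 to -1.57). The immediate-early genes had 2 of 5 past 2-fold higher, with a median of 0.996 that lay between 0.69 and 1.61 under every alternative. The count was 1 of 5 with TMM scaling or with Cga left out of the totals, and 5 of 5 with barcodes weighted equally or without the deepest barcodes. The granule genes had 0 of 13 higher and 7 lower, with a median of -1.02 and a range of -1.32 to -0.92. Gnrhr, a marker of the rule, was higher by 1.24 (0.79 to 1.68) on the log2 scale. Wfdc2, a secreted protein gene, was at 37.0, 199 and 601 CPM in the WT, P27NULL and S2CK sums, a ratio of 4.02 (3.17 to 4.97) for S2CK over WT, and Aebp1 was at 39.7, 134 and 377, a ratio of 3.25 (2.37 to 4.20). Both were lowest in WT and highest in S2CK. Rab3b, a vesicle GTPase gene, had 56, 37 and 1 UMIs.

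Genes of DNA replication and mitosis were at or near 0 in gonadotrophs. Mki67, Top2a, Cdk1, Ccna2, Rrm2 and Mcm3 had 0 UMIs in the gonadotrophs of all 3 libraries, which allows up to 7.94, 6.57 and 26.9 CPM each. Pcna, a replication clamp that cells also use in repair, had 7, 12 and 5 UMIs. Among other inhibitors, Cdkn1c, which encodes p57, was at 29.1 CPM (14.5 to 52.1), 127 (96.4 to 164) and 62.8 (25.2 to 129), a ratio of 2.13 (1.18 to 3.2) for P27NULL over WT. Cdkn2c, which encodes p18, had 1, 14 and 11 UMIs. Ccnd2, a cyclin gene, was at 365 CPM (307 to 431) in WT, 91.9 (66.3 to 124) in P27NULL and 0 UMIs in S2CK, where up to 26.9 CPM is allowed. The same order was seen in the other barcodes, at 405, 115 and 18.6 CPM. In P27NULL gonadotrophs Ccnd2 was at 277 CPM with Xist and 68.1 without.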

How the data were processed

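The deposited values were counts of UMIs per gene and cell barcode, 1 table for each of 3 libraries, made by the authors and neither normalized nor pooled. The submitters' processing notes name Cell Ranger 3.0.2, STAR 2.5.1b, R 3.6.0 and Seurat 3, and the study's build was GRCm38. Tables held 2020, 4153 and 3488 barcodes with 8332285, 15588317 and 19239147 UMIs, and no column of per-sample values was left unused. Doublets were not called here, since the rule on Pomc and the marker sums were used instead. Gonadotroph barcodes were chosen by the rule given above, their UMIs were summed per library and scaled to CPM by the total, and exact Poisson (levels), Clopper-Pearson (shares) and conditional binomial (log2 ratios) 95% intervals were computed with Python 3.11.15, numpy 2.4.6, pandas 2.3.3 and scipy 1.17.1. With 1 library per genotype no test was run and no p-value is given.

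Genes compared with other barcodes had at least 5 UMIs in each gonadotroph sum and 50 in all 3, and genes compared between genotypes at least 20 UMIs in both sums together. A gene past 2-fold had an absolute log2 ratio of at least 1. A value of 0 is read as up to 3 counts. The genes named were the 5 rule markers, members of fixed lists, up to 30 genes furthest above the other barcodes and up to 10 per direction and pair with at least 30 UMIs. The members and lists were chosen with earlier results of these data known. The scripts were tested on simulated counts. Alternatives changed the rule, the depth, the scaling (TMM from edgeR 4.0.16 in R 4.3.3, or other totals), the count minimum, the weighting of barcodes and the sex of the cells. Totals without Cga, and sums without the barcode highest in stem cell markers, were chosen after seeing the data, as were levels without the barcode that held most of a gene. Upstream sequences came from RefSeq, build GRCm38.p6. They were printed for genes with an entry there, which Nr5a1 did not have. The sex of the cells was read from Xist and Y-linked genes. Some listed genes are not reported here.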

Additional observations from a re-analysis of the deposited data

Results flagged for a closer look

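Gene lists were set apart where their median log2 ratio between genotypes had opposite signs in gonadotrophs and in the other barcodes of the same libraries. Over all genes the median in gonadotrophs was 0.26 for P27NULL over WT and 0.15 for S2CK over WT. The difference itself was not tested in any of them, since each genotype had 1 library. For the 11 transcription factors of the lineage, which include the rule marker Nr5a1, the median log2 ratio of P27NULL over WT was 1.01 in gonadotrophs and -0.37 in the other barcodes. For the 7 hypothalamic and steroid receptors it was 0.51 in gonadotrophs and -0.51 in the others, with 0 of 7 past 2-fold in gonadotrophs, and Gnrhr in this list was a marker of the rule. For the 5 immediate-early genes of the study's list it was 1.38 in gonadotrophs and -0.48 in the others. The same 5 genes had a median of 0.996 for S2CK over WT in gonadotrophs and -0.94 in the others. Egr1 is a member of both the first and the immediate-early list. No list was checked for a library far from the rest of its group, because no group had more than 1.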

How the results depend on the processing

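No paired analysis was possible because each genotype had 1 library. The share of gonadotrophs in P27NULL was 1.76% with 4 or more markers required and 2.09% at 2000 UMIs per barcode. Genes lower than the other barcodes in all 3 libraries numbered 25 when only barcodes with little Pomc were compared, 23 with Pomc, mitochondrial and ribosomal protein genes left out of the totals, and 2300 with no count minimum, which also gave 415 that were higher. With TMM scaling, P27NULL over WT had 399 higher and 215 lower genes and S2CK over WT 142 and 482. With no count minimum the counts of higher and lower genes were 3562 and 1859 for P27NULL over WT, 2106 and 5079 for S2CK over P27NULL, and 2715 and 4264 for S2CK over WT, since genes with 1 count then entered. With each barcode weighted equally, 227 genes were lower in P27NULL than WT and 308 higher in S2CK than P27NULL. S2CK over P27NULL had 85 lower genes among barcodes with Xist and 310 without the deepest barcodes, those over 2 times the median. Other causes were not tested. Of named genes, Cyp2f2 turned from higher to lower in P27NULL than WT with barcodes weighted equally (-0.14) or without the deepest barcodes (-1.80), and its S2CK over WT ratio turned to 0.21 without the deepest barcodes and 0.033 without the barcode highest in stem cell markers. Among barcodes with Xist, S2CK over P27NULL turned to 0.050 for Fscn1 and -0.58 for Gng3. Under these alternatives 72 of 92 values of counts and shares stayed within 1.5 times or within their interval. The 19 gonadotrophs and 111500 UMIs of S2CK limited every comparison with that library.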
